A study of Mus musculus with 4 samples.

Results

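The sirtuins are 7 enzymes, encoded by Sirt1 to Sirt7, that remove acetyl and other acyl groups from lysines of proteins, and Nampt encodes the enzyme that keeps them supplied with their cofactor. These 8 genes were followed in the liver of aging mice. Members were every array probe whose transcript identifier maps to 1 of the 8 symbols, which gave 14 probes, out of 33767 probes that map to 23462 genes. Nampt, Sirt3 and Sirt5 had 1 probe each, Sirt1, Sirt2, Sirt6 and Sirt7 had 2, and Sirt4 had 3.

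Total RNA of whole liver from male mice, killed after a fast of 12 hours, was labelled with Cy5 and hybridized to 1 single-colour Agilent array per group. The 4 groups were aging diabetic mice treated with astragalus polysaccharide (APS, a plant root polysaccharide) and metformin, aging diabetic mice treated with metformin (a biguanide that lowers blood glucose), aging diabetic mice, whose liver is labelled only as taken after modeling, and natural aging mice, labelled as given no drug. Diabetes is therefore shared by 3 of the groups and aging by all 4, and there was no young group. All 4 titles carry a time of 60 d, whose starting point is not stated. The labels used here do not give strain, age, how diabetes was induced, doses, or whether an array held RNA of 1 mouse or of several. With no replicates there was no test, and no difference between arrays can be told apart from a difference between individual livers.

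Sirtuins consume NAD in each reaction and release nicotinamide. Nampt joins nicotinamide to phosphoribosyl pyrophosphate, the rate-limiting step of the salvage route by which most mammalian cells rebuild NAD. In liver, which can also make NAD from tryptophan and nicotinic acid, the nuclear and mitochondrial sirtuins are known for roles in fasting metabolism, fatty acid oxidation, gluconeogenesis and DNA repair. Transcript level is 1 layer of this system: it gives neither NAD concentration nor enzyme activity.

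The promoters of Nampt and Sirt1 are shown because these genes had the lowest differences among the members between the aging diabetic and the natural aging liver. Each sequence is from RefSeq on the GRCm38.p6 build and runs from 250 bases before to 50 bases after the annotated transcript start. Both strands were searched for CACGTG, the E-box bound among others by the circadian CLOCK:BMAL1 pair, and for TGACGTCA, the cAMP response element. Capitals mark CACGTG.
Nampt, chr12:32820085-32820384, plus strand: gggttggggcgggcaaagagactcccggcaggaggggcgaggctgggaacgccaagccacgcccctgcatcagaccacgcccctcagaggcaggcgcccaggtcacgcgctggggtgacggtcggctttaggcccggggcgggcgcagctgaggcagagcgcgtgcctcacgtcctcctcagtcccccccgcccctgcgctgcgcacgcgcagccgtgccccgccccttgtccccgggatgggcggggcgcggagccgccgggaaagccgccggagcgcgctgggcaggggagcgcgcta
Sirt1, chr10:63338986-63339285, minus strand: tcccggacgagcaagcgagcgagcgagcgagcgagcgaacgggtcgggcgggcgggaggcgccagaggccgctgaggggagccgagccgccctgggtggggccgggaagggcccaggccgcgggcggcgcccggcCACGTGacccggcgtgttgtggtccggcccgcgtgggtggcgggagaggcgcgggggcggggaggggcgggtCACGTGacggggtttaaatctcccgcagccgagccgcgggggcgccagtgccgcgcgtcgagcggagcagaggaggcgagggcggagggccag
Both windows are rich in G and C, which make up 76.3% of the bases for Nampt and 79% for Sirt1. The Sirt1 window holds 2 copies of CACGTG, which start at positions -115 and -43 from the transcript start, and it is the only one of the 10 promoters listed for the 8 genes that holds this motif. Of all 32851 promoters of this length in the table, 7.15% hold CACGTG and 1.79% hold TGACGTCA. None of these 10 holds TGACGTCA in this window.

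The tissue label was checked first. All 10 hepatocyte markers, among them albumin (Alb) and carbamoyl phosphate synthetase (Cps1), were well above background on all 4 arrays, so hepatocyte RNA was measured in every group. Pancreatic acinar markers were present too: the summed level of the 9 listed was 4.82 in the APS plus metformin liver, 17.7 in the metformin liver, 8.57 in the aging diabetic liver and 72.2 in the natural aging liver, in units of each array's 75th percentile. A sum adds the linear level of the brightest probe of each gene, outlier spots kept, so bright probes weigh most in it. All 9 acinar markers were well above background on the metformin, aging diabetic and natural aging arrays, and 4 of 9 on the APS plus metformin array. On that last array most of the sum came from Cela1, at 2.20 as a log2 value relative to the 75th percentile. Ctrb1, Pnlip and Cela3a read -4.69, -4.52 and -4.49 there. The natural aging liver, to which the others are compared, thus held the most of this RNA. The arrays held 59305 spots other than controls, of which 35743 were well above background in the APS plus metformin liver, 37402 in the metformin liver, 34895 in the aging diabetic liver and 33668 in the natural aging liver. Spots had no saturation flag on any array. All levels below are log2 values relative to the 75th percentile of the same array, so 0 means as bright as that percentile. A probe's level depends on its sequence, so levels were compared between arrays for 1 probe and never between probes.

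Of the 14 probes, 12 were well above background on all 4 arrays and 2 on none of them. The dim probes were A_55_P2598462 for Sirt1, at -7.25 to -5.81, and A_51_P416215 for Sirt6, at -6.13 to -5.07. Each of these genes had another probe that was detected, so all 8 genes were measured in every group. The error that the scanning software attaches to a spot was about 0.12 on the log2 scale for each detected member probe, and about 0.16 for a difference between 2 arrays. This error covers the measurement of the spot only.

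**Figure D1:**
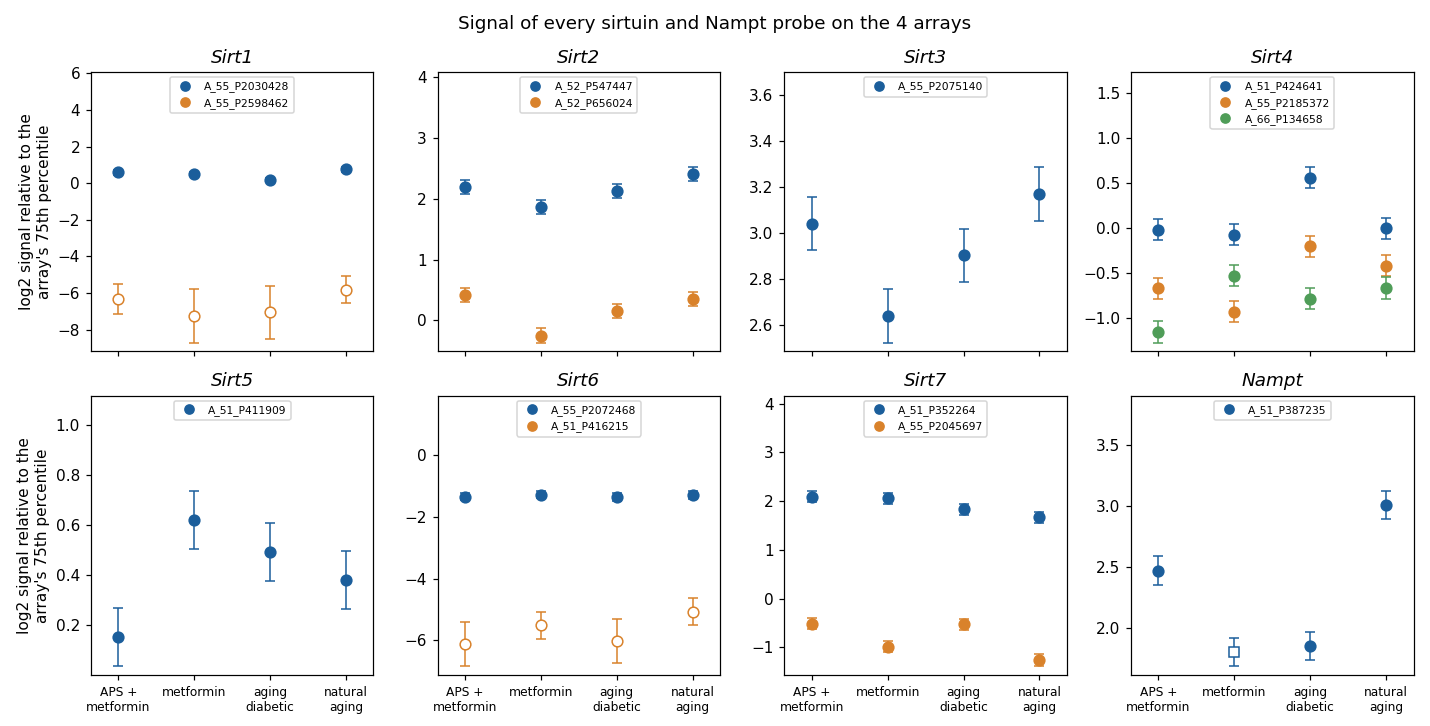
Log2 signal relative to the 75th percentile of each array (y axis, a scale of its own in each panel) for every probe of the 8 genes on the 4 arrays (x axis). Bars are the software's error of the spot, open circles are spots not well above background, and the open square is a spot with an outlier flag. Nampt spans 1.20 on the log2 scale, and the detected Sirt6 probe lies between -1.35 and -1.27.

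Nampt was the member that varied most and the only one with a detected probe that passed a 2-fold difference between any 2 arrays. Its probe, A_51_P387235, read 2.47 in the APS plus metformin liver, 1.80 in the metformin liver, 1.85 in the aging diabetic liver and 3.01 in the natural aging liver. As linear processed intensity these levels were 18895, 12523, 11099 and 21710 in the same order of groups. Signal was thus high in the APS plus metformin and the natural aging livers and low in the other 2. The spot on the metformin array carried an outlier flag, given by the software to spots whose pixels are uneven, and it was the only such flag among the 56 member spots. The metformin value of Nampt is printed here as measured and was left out of counts.

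In the aging diabetic liver, Nampt was 2.22-fold lower than in the natural aging liver, a log2 difference of -1.15 with a measurement error of 0.16. It was 1 of 8 members lower by 2-fold or more, in a comparison in which 6.01% of 15036 genes were lower and 8.14% higher by that size. No member was higher. Nampt's difference was larger in size than that of 89.0% of the genes compared, and 4.65% of genes had a lower value. As 14.2% of all genes passed 2-fold in either direction, 1 of 8 is near the background and is not a result about the set. In bulk liver, fewer cells of a type that carries the transcript and less transcript per cell cannot be told apart.

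The APS plus metformin liver read higher than the aging diabetic liver for Nampt by 0.62 on the log2 scale, which is 1.53-fold and under the 2-fold threshold. Of all genes in that comparison, 74.8% had a smaller difference. The value of the APS plus metformin liver was still 0.54 below that of the natural aging liver (log2 difference -0.54, 1.45-fold lower). These comparisons share arrays, so their Nampt values are not independent of each other. With the outlier spot kept, the metformin liver differed from the aging diabetic liver by -0.05, which is within the measurement error, and from the natural aging liver by -1.20, which is 2.30-fold lower. On the same basis the APS plus metformin liver stood 0.67 above the metformin liver, or 1.59-fold.

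The size of the Nampt difference lay close to the threshold and depended on the scaling. After quantile normalization it was -0.98, after cyclic loess -0.99, and in the authors' own log2 values -0.98, each just under 2-fold. The authors' values lay within an SD of 0.004 of the quantile-normalized intensity, so those 2 are nearly the same scaling. With the normexp background correction it was -1.02, with a 75th percentile taken over spots without an outlier flag -1.07, and with each array's median as the scale -1.20. Nampt was therefore lower in the aging diabetic liver under every scaling tried, by log2 differences between -1.20 and -0.98.

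**Figure D2:**
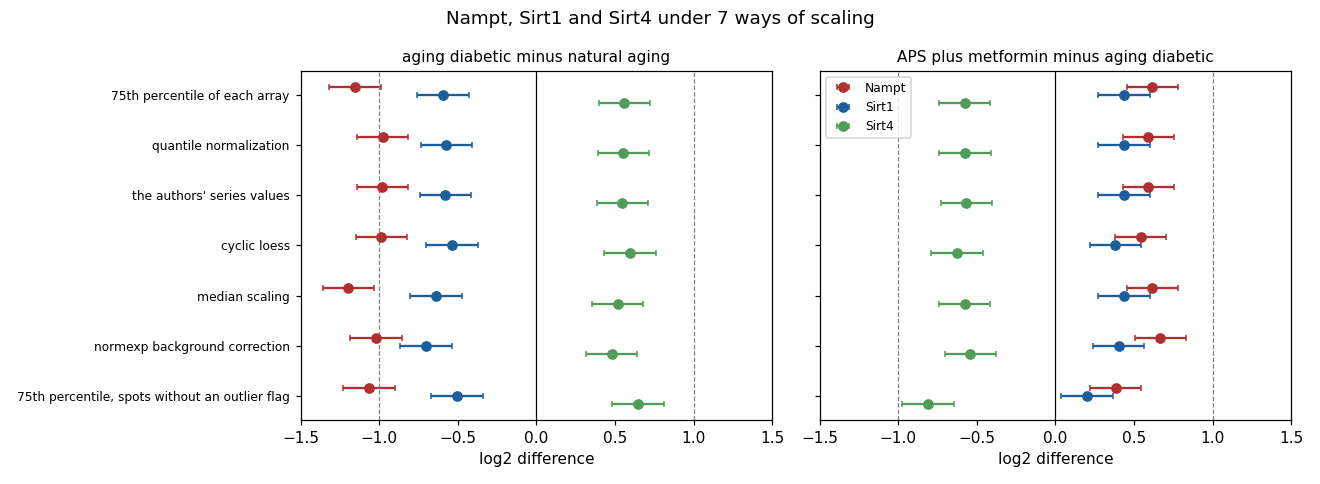
Log2 difference (x axis) of Nampt, Sirt1 and Sirt4 under 7 ways of scaling the arrays (y axis), for aging diabetic minus natural aging and for APS plus metformin minus aging diabetic. Quantile normalization and the authors' values are nearly the same scaling. Bars are the combined measurement error and dashed lines mark 2-fold. Nampt moves across the lower dashed line with the scaling, between -1.20 and -0.98, whereas Sirt1 and Sirt4 keep their side of 0 and stay inside 2-fold.

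Some markers of other cell types were lower together with Nampt in the aging diabetic than in the natural aging liver. Of 7 leukocyte markers compared, 3 were lower by 2-fold or more, with a median log2 difference of -0.97 over the 7 against -0.04 over all genes. They were Nkg7, a cytotoxic lymphocyte gene (4.56-fold lower), S100a9, a neutrophil gene (3.18-fold lower), and Cd3g, a T cell receptor subunit (2.65-fold lower). The summed level was taken over all 12 listed leukocyte genes, outlier spots kept, on the same scale as above. It was 38.4 with APS plus metformin, 36.7 with metformin, 36.6 in the aging diabetic liver and 48.4 in the natural aging liver. Ms4a1, a B cell gene, was well above background in the metformin liver alone. The Cd3g difference was under 2-fold with the normexp correction, at -0.96. Of the stellate cell markers 3 of 6 were lower, with a median of -1.32, and of the pancreatic acinar markers 7 of 8, with a median of -4.85. Over all genes 6.01% were lower by 2-fold. Of the Kupffer cell and macrophage markers 0 of 7 passed 2-fold, of the endothelial markers 0 of 6 and of the adipocyte markers 0 of 4. Their medians were -0.62, -0.57 and -0.11 in this order, so the first 2 lists also lay below the median of all genes.

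In the other comparisons these markers did not all follow Nampt. Between the metformin and the aging diabetic liver, whose Nampt values differed by -0.05 with the outlier spot kept, 5 of 8 leukocyte markers were higher by 2-fold in the metformin liver, with a median of 1.40. Over all genes 11.8% were higher by 2-fold. Among the leukocyte markers Nkg7 was 16.2-fold and Cd3g 8.80-fold higher. Cd3g read -4.23 in the aging diabetic liver, near the lowest level well above background on that array, -4.75. The summed leukocyte levels of these 2 livers were nearly equal, but that sum covers all 12 genes and weighs bright probes most. In the APS plus metformin against the aging diabetic liver, where Nampt stood 0.62 higher, 1 of 7 leukocyte markers and 2 of 6 stellate cell markers were higher. In the same comparison 7 of 9 acinar markers were lower, with a median of -2.44. Over all genes 4.39% were higher and 6.79% lower. The part of these cells in the Nampt differences was not tested.

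Between the aging diabetic and the natural aging liver, hepatocyte markers had a median difference of -0.36, and 0 of 9 passed 2-fold. Their summed level was 175 in the APS plus metformin liver, 132 in the metformin liver, 167 in the aging diabetic liver and 212 in the natural aging liver.

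The pattern of Nampt was set against 12702 genes detected on all 4 arrays. Genes with provisional symbols, such as those with Gm, LOC or Rik, were passed over for naming. Of the rest, the closest were Slc9a3r1, Rab20 and Ptpn12. The root mean square distance of their centred values from those of Nampt was 0.042, 0.045 and 0.048 on the log2 scale over 4 arrays. Slc9a3r1, for example, read -1.12 in the APS plus metformin liver, -1.79 in the metformin liver, -1.71 in the aging diabetic liver and -0.48 in the natural aging liver. In all, 15 genes lay within 0.1 of Nampt, with provisional symbols counted. The distance includes the Nampt spot with the outlier flag, and over the other 3 arrays these genes stood at 0.043, 0.050 and 0.050.

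None of the 7 sirtuins passed 2-fold in any of the 6 comparisons between arrays. This held for each of the 66 differences of the 11 detected sirtuin probes, the largest of which was 0.75 in size. Of these 66 differences, 8 passed 1.5-fold and 27 were larger than 2 measurement errors. Of all genes, 26.8% (APS plus metformin against aging diabetic) to 36.7% (metformin against natural aging) passed 1.5-fold. The share of all genes past 2 measurement errors was not taken, so the 27 has no background and is not a result about the sirtuins. The 66 differences share probes and arrays and are not independent of each other. In the aging diabetic against the natural aging comparison, the largest sirtuin differences by the brightest probe were those of Sirt1, at -0.59, and Sirt4, at 0.56.

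The counts by gene are read against all genes. For metformin relative to aging diabetic, 11.8% of genes were higher and 3.5% lower by 2-fold (15.3% in all), and 30% passed 1.5-fold. For APS plus metformin relative to aging diabetic, 4.39% were higher and 6.79% lower (11.2% in all), and 26.8% passed 1.5-fold. For APS plus metformin relative to metformin, 2.31% were higher and 12.1% lower (14.5% in all), and 30.4% passed 1.5-fold. For metformin relative to natural aging, 12.8% were higher and 4.66% lower (17.5% in all), and 36.7% passed 1.5-fold. For APS plus metformin relative to natural aging, 6.2% were higher and 6.49% lower (12.7% in all), and 28.9% passed 1.5-fold. With 7 genes and shares of this size, 0 past 2-fold is near the background in each comparison. At 1.5-fold, 1 of 7 sirtuins passed in the aging diabetic against the natural aging liver (Sirt1), 1 in the metformin against the aging diabetic liver (Sirt4), and 0 in the other 4 comparisons.

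**Figure D3:**
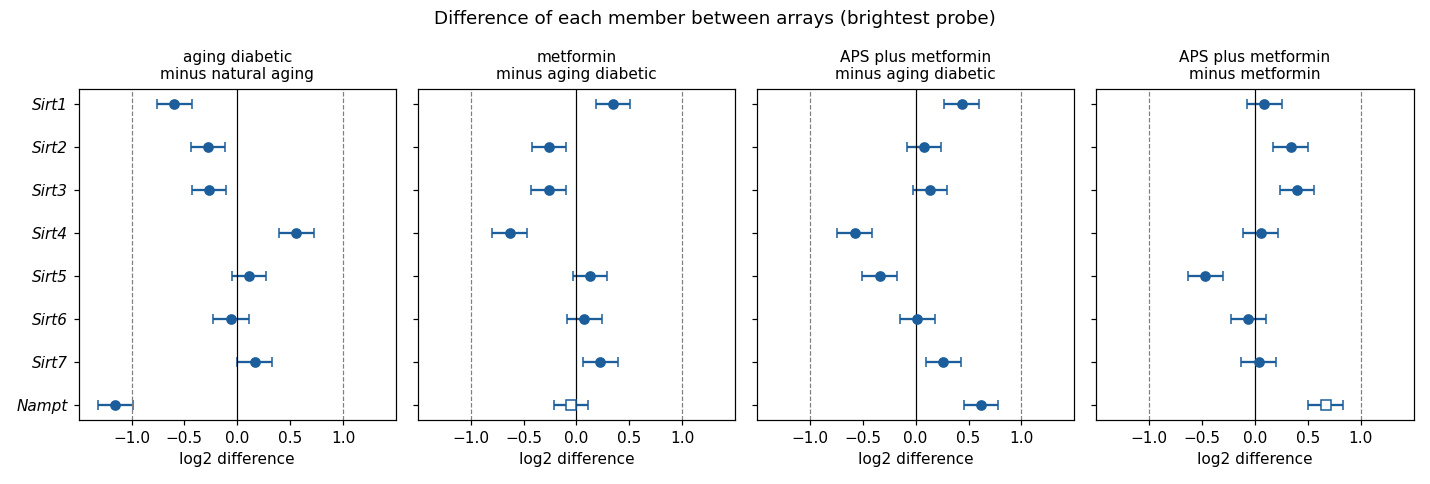
Log2 difference (x axis) of the brightest probe of each gene (y axis) in 4 comparisons between arrays. Bars are the combined measurement error, dashed lines mark 2-fold, and the open square is the Nampt difference that includes the spot with the outlier flag. Nampt in the aging diabetic against the natural aging liver is the only point beyond a dashed line.

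Sirt1, the nuclear deacetylase of transcription factors and coactivators such as PGC-1alpha and p53, was lowest in the aging diabetic liver. Its detected probe A_55_P2030428 read 0.59 in the APS plus metformin liver, 0.50 in the metformin liver, 0.16 in the aging diabetic liver and 0.75 in the natural aging liver. The aging diabetic liver was apart from the other 3, which lay within 0.25 of each other. It was 0.59 below the natural aging liver (log2 difference -0.59), the lowest difference among the sirtuins and just past 1.5-fold. The metformin liver was 0.35 and the APS plus metformin liver 0.43 above the aging diabetic liver, each more than 2 measurement errors, but the differences went down to 0.18 with each array's median as the scale and 0.20 with the 75th percentile over spots without an outlier flag. With the median as the scale the metformin liver also differed from the natural aging liver by -0.46, so the other 3 livers then lay wider apart. Metformin with and without APS gave values 0.09 apart, which is within the error. Sirt1 and Nampt were the members past 1.5-fold between the aging diabetic and natural aging livers, 2 of 8, where 30.5% of all genes passed that size.

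Sirt6 and Sirt7 are the other mainly nuclear members. Sirt6, a chromatin-bound histone H3 deacetylase that restrains glycolytic genes and takes part in DNA repair, was the most even gene of the family. Its detected probe A_55_P2072468 read -1.33 in the APS plus metformin liver, -1.27 in the metformin liver, -1.35 in the aging diabetic liver and -1.29 in the natural aging liver. The whole range of 0.076 was smaller than the error of 1 spot. This evenness depended on the scaling: with the 75th percentile over spots without an outlier flag the APS plus metformin liver differed from the metformin liver by -0.30, and with each array's median as the scale the metformin liver differed from the natural aging liver by -0.20.

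Sirt7, a nucleolar deacylase linked to ribosomal RNA transcription, was lowest in the natural aging liver by both of its probes. Probe A_51_P352264 read 2.09 in the APS plus metformin liver, 2.05 in the metformin liver, 1.83 in the aging diabetic liver and 1.66 in the natural aging liver. Probe A_55_P2045697 read -0.52 in the APS plus metformin liver, -0.98 in the metformin liver, -0.53 in the aging diabetic liver and -1.27 in the natural aging liver. The probes gave the same direction against natural aging but not the same size: in the aging diabetic against the natural aging liver they differed by 0.16 and 0.74. In the metformin against the aging diabetic liver they gave opposite signs, 0.23 and -0.46. Against natural aging, the APS plus metformin liver was higher by 0.43 with the brighter probe and 0.75 with the dimmer one, the largest difference of any detected sirtuin probe.

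Sirt2, a mainly cytoplasmic tubulin deacetylase, was lowest in the metformin liver by both probes. Probe A_52_P547447 read 2.20 in the APS plus metformin liver, 1.86 in the metformin liver, 2.12 in the aging diabetic liver and 2.40 in the natural aging liver. Probe A_52_P656024 read 0.41 in the APS plus metformin liver, -0.25 in the metformin liver, 0.16 in the aging diabetic liver and 0.35 in the natural aging liver. The probes had the same sign in 5 of the 6 comparisons. In the aging diabetic against the natural aging liver they gave -0.28 and -0.19, a gap of 0.09 between probes. The APS plus metformin liver exceeded the metformin liver by 0.34 and 0.66, so the order of these 2 livers was the same for both probes. Against natural aging the metformin liver was lower by 0.54 with the first probe and 0.59 with the second (log2 differences -0.54 and -0.59). For the brighter probe that difference was -0.26 after cyclic loess, -0.32 after quantile normalization and -0.31 in the authors' values. Its difference between the aging diabetic and the natural aging liver went to -0.03 with the normexp correction, and that between the APS plus metformin and the metformin liver to 0.10 with the 75th percentile over spots without an outlier flag.

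Sirt3, Sirt4 and Sirt5 are the mitochondrial members. Sirt3, the main mitochondrial deacetylase, which acts on enzymes of fatty acid oxidation and on superoxide dismutase 2, read 3.04 in the APS plus metformin liver, 2.64 in the metformin liver, 2.90 in the aging diabetic liver and 3.17 in the natural aging liver. Its order of livers was the same as that of the brighter Sirt2 probe. The metformin liver was lowest, 0.26 below the aging diabetic (log2 difference -0.26) and 0.53 below the natural aging liver (log2 difference -0.53). The APS plus metformin liver was 0.40 above the metformin liver and within the error of both the aging diabetic liver, at 0.14, and the natural aging liver, at -0.13. These sizes depended on the scaling. The metformin against natural aging difference was -0.17 after quantile normalization, after cyclic loess and in the authors' values, close to the error. The APS plus metformin against metformin difference was 0.16 with the 75th percentile over spots without an outlier flag and 0.17 after cyclic loess. The aging diabetic against natural aging difference, at -0.27, went to -0.04 after quantile normalization.

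Sirt4, which represses glutamate dehydrogenase and acts as a lipoamidase, was the one sirtuin whose brightest probe was highest in the aging diabetic liver. Probe A_51_P424641 read -0.02 in the APS plus metformin liver, -0.08 in the metformin liver, 0.55 in the aging diabetic liver and -0.01 in the natural aging liver. With this probe the aging diabetic liver stood 0.56 above natural aging, and metformin and APS plus metformin stood below it, at log2 differences of -0.63 and -0.58. With the mean of the detected probes the first of these 3 differences was 0.22 and the second -0.37. Of all members, only Sirt4 passed 1.5-fold in the metformin against the aging diabetic liver, 1 of 7 where 30% of genes did.

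The 3 Sirt4 probes did not give the same order of livers. Probe A_55_P2185372 read -0.67 in the APS plus metformin liver, -0.93 in the metformin liver, -0.21 in the aging diabetic liver and -0.42 in the natural aging liver, so it was again highest in the aging diabetic liver. Probe A_66_P134658 read -1.16 in the APS plus metformin liver, -0.53 in the metformin liver, -0.79 in the aging diabetic liver and -0.67 in the natural aging liver. With that probe the metformin liver was the highest and lay 0.25 above the aging diabetic liver, against differences of -0.63 and -0.73 with the other probes. The widest gap between Sirt4 probes in this comparison was 0.98, wider than for 89.5% of the 3897 genes with several probes. All 3 probes placed the APS plus metformin liver below the aging diabetic liver, by log2 differences of -0.58, -0.46 and -0.37. The probes' positions on the Sirt4 transcripts were not used here.

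Sirt5, which removes succinyl, malonyl and glutaryl groups and acts on the urea cycle enzyme Cps1, read 0.15 in the APS plus metformin liver, 0.62 in the metformin liver, 0.49 in the aging diabetic liver and 0.38 in the natural aging liver. The APS plus metformin liver was lowest, 0.47 below the metformin liver (log2 difference -0.47) and 0.34 below the aging diabetic liver (log2 difference -0.34). Over the settings tried these differences ranged from -0.71 to -0.30 and from -0.57 to -0.18. The metformin and the aging diabetic livers differed by 0.13, within the error.

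Set side by side, the members did not move as 1 group. Between the aging diabetic and the natural aging liver, the brightest probes of Nampt, Sirt1, Sirt2, Sirt3 and Sirt6 had negative differences and those of Sirt4, Sirt5 and Sirt7 positive ones. The median over the 8 genes was -0.16, against -0.04 over all genes. Sirt6, at -0.06, turned positive when the 75th percentile was taken over spots without an outlier flag. In the APS plus metformin against the aging diabetic liver 6 of 8 differences were positive, with a median of 0.11 against 0.02 over all genes, but only 3 of 8 under that scaling, where Sirt2, Sirt3 and Sirt6 turned negative. In the metformin against the aging diabetic liver 4 of 7 differences were positive, and 2 of 7 with each array's median as the scale. The family thus had no shared direction with metformin. Sirt1 and Sirt7 lay above the aging diabetic liver by their brightest probes, and Sirt2, Sirt3 and Sirt4 below it, each by more than the error. With the mean of its detected probes, however, Sirt7 turned to -0.12. After cyclic loess Sirt2, at -0.14, and Sirt3, at -0.12, were within the error.

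**Figure D4:**
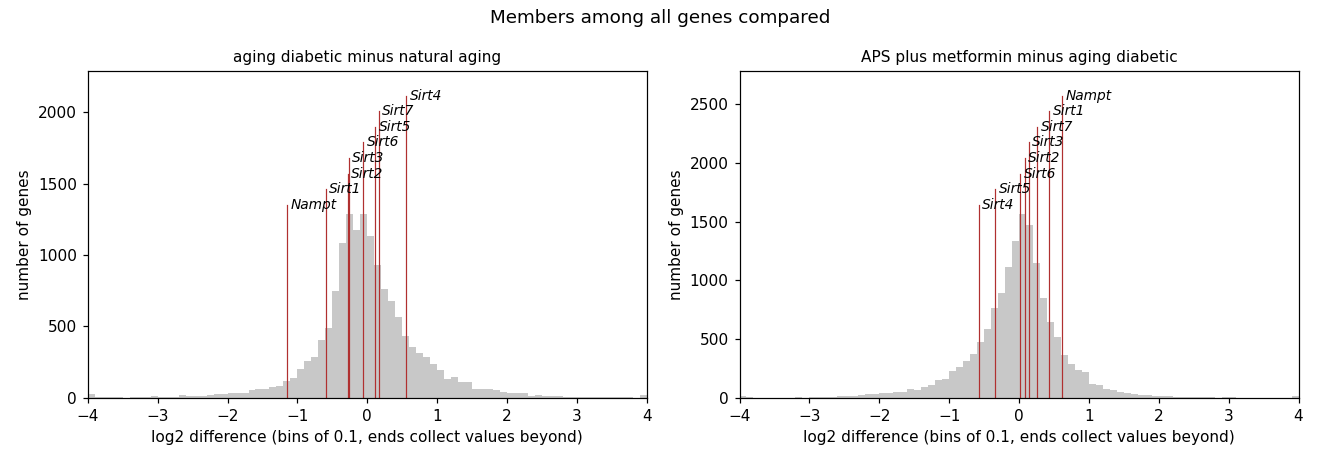
Number of genes (y axis) by log2 difference (x axis, bins of 0.1) for aging diabetic minus natural aging and APS plus metformin minus aging diabetic, with red lines at the 8 members. On the left, Nampt at -1.15 stands in the lower tail and Sirt4 at 0.56 on the upper side. On the right, Nampt is the highest member at 0.62 and Sirt4 the lowest at -0.58.

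The genes around Nampt in NAD metabolism were examined with a list of 20 genes of NAD synthesis and salvage, Nampt not included. Of 15 that could be compared between the aging diabetic and the natural aging liver, 1 was higher by 2-fold and 0 were lower, and the median was -0.02. Over all genes 8.14% were higher and 6.01% lower, so this count is near the background. The higher gene was Nmnat3, a mononucleotide adenylyltransferase that carries out the step after Nampt and also serves the routes from nicotinic acid and tryptophan. It read -2.13 in the APS plus metformin liver, 0.07 in the metformin liver, 0.43 in the aging diabetic liver and -0.87 in the natural aging liver. Nmnat3 was thus 2.46-fold higher in the aging diabetic than in the natural aging liver, whereas Nampt was 2.22-fold lower. In the APS plus metformin liver, Nmnat3 was 5.92-fold lower than in the aging diabetic liver. Nmnat1, the nuclear enzyme of the same step, differed by -0.02 between the aging diabetic and the natural aging liver.

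The genes named next act before that adenylyl step on the routes that do not need Nampt, or after it, and were under 2-fold apart between the same livers. Acmsd, Ido1 and Tdo2 were among those not compared. Naprt, which starts the route from nicotinic acid, differed by 0.01 and Nadsyn1, which ends it, by -0.27. On the tryptophan route, Qprt differed by -0.45 and Kmo by -0.66, both under 2-fold. In the APS plus metformin against the aging diabetic liver, 2 of 16 genes were lower, Nmnat3 and Ido2, and 0 were higher. Over all genes 6.79% were lower and 4.39% higher in that comparison. Ido2, an indoleamine dioxygenase of tryptophan breakdown, read 0.92 in the APS plus metformin liver and 2.51 in the aging diabetic liver, 3.01-fold lower, but with the mean of its detected probes its difference was -0.78. In the metformin against the aging diabetic liver, 0 of 16 passed 2-fold in either direction, where 15.3% of all genes did.

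**Figure D5:**
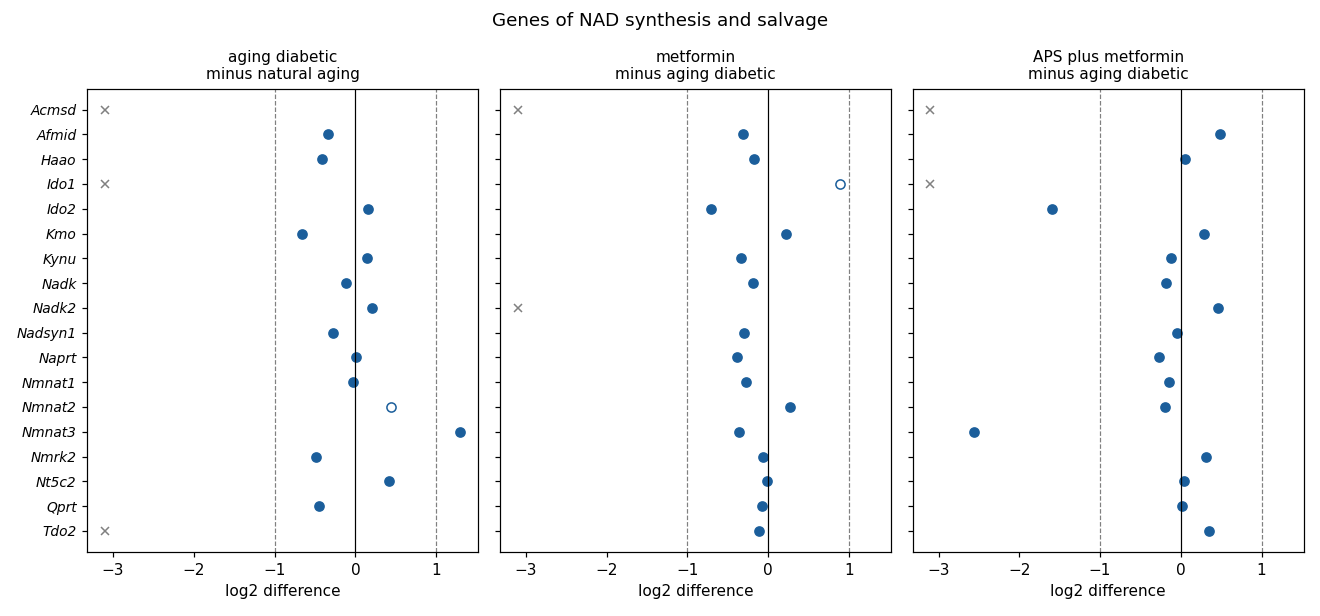
Log2 difference (x axis) of the genes of NAD synthesis and salvage (y axis) in 3 comparisons, with dashed lines at 2-fold. Open circles are bounds where only 1 array was well above background, and crosses at the left edge mark genes not compared. Nmnat3 lies at 1.30 in the aging diabetic minus natural aging panel and at -2.57 in the APS plus metformin minus aging diabetic panel.

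Enzymes that compete with sirtuins for NAD or remove nicotinamide formed a list of 15 genes. Between the aging diabetic and the natural aging liver, 1 of 12 compared was higher and 1 lower by 2-fold. The shares over all genes were near this, 8.14% higher and 6.01% lower. Sarm1, an NAD hydrolase known from axon degeneration, was 3.61-fold higher, and Aox3, an aldehyde oxidase, 2.55-fold lower. Parp1, the main nuclear poly(ADP-ribose) polymerase, differed by -0.24, and Nnmt, which methylates nicotinamide, by 0.32. Bst1, an ADP-ribosyl cyclase of the CD38 family, read -3.25 in the APS plus metformin liver, -1.57 in the metformin liver and -4.41 in the aging diabetic liver. It was 7.14-fold higher in the metformin and 2.23-fold higher in the APS plus metformin liver than in the aging diabetic liver, the second of which was under 2-fold with the normexp correction, at a log2 difference of 0.80. The aging diabetic value lay near the lowest level well above background on that array, -4.75, and the first difference had a log2 error of 0.30. Bst1 was not compared with natural aging, where its spot carried an outlier flag. Leukocyte markers were higher in the metformin liver too, as given above, and their part in the Bst1 difference was not tested. Parp4 and Parp10, genes of the family named after poly(ADP-ribose) polymerase, were 2.11-fold and 2.08-fold higher in the metformin than in the natural aging liver. Both were under 2-fold with each array's median as the scale.

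Of 12 genes of NAD redox balance and transport, 11 were compared and 0 passed 2-fold between the aging diabetic and the natural aging liver. Of all genes, 14.2% did. Between the metformin and the aging diabetic liver 1 was higher and 1 lower, where 11.8% of all genes were higher and 3.5% lower. Slc12a8 is proposed as a transporter of nicotinamide mononucleotide. It read -4.68 with APS plus metformin, -2.47 with metformin, -4.42 in the aging diabetic liver and -4.37 in the natural aging liver. It was thus 3.85-fold higher in the metformin than in the aging diabetic liver, with a log2 error of 0.31. The lowest levels well above background were -4.84, -4.95, -4.75 and -4.52 in the same order of groups. All but the metformin value of Slc12a8 lay near that floor. Gpd2, the mitochondrial glycerol-3-phosphate dehydrogenase, was 2.09-fold lower in the metformin and 3.04-fold lower in the APS plus metformin than in the aging diabetic liver, the first of which was -0.59 on the log2 scale with outlier spots kept.

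Among 10 compared regulators of sirtuin expression and activity, Hic1 was the one past 2-fold between the aging diabetic and the natural aging liver. As 14.2% of all genes passed 2-fold there, 1 of 10 is near the background. Hic1 encodes a repressor known to act on the Sirt1 promoter. It read -1.66 in the APS plus metformin liver, -0.76 in the metformin liver, -1.87 in the aging diabetic liver and -0.23 in the natural aging liver. It was 3.13-fold lower in the aging diabetic than in the natural aging liver, a comparison in which Sirt1 differed by -0.59. In the metformin against the aging diabetic liver, Hic1 was 2.17-fold higher and Trp53, which encodes p53, 2.15-fold lower. Senp1, a SUMO protease, was 2.12-fold higher in the APS plus metformin than in the aging diabetic liver. Hic1 in the metformin liver, at 0.95 with each array's median as the scale, and Senp1, at 0.80 with the mean of its detected probes, were under 2-fold in those settings. Rps19bp1, which encodes the Sirt1 activator AROS, differed by -0.14 between the aging diabetic and the natural aging liver.

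Of 19 compared genes that encode nuclear or cytoplasmic proteins known as sirtuin substrates, 0 passed 2-fold between the aging diabetic and the natural aging liver. Of all genes, 14.2% did. In the APS plus metformin against the aging diabetic liver 2 of the 19 did, and both were higher. As 11.2% of all genes passed 2-fold there, this count is near the background. Ppargc1a, which encodes the Sirt1 substrate PGC-1alpha, a coactivator of mitochondrial and gluconeogenic genes, read 2.66 in the APS plus metformin liver, 1.37 in the metformin liver, 0.97 in the aging diabetic liver and 1.12 in the natural aging liver. The APS plus metformin liver stood above the other 3, by 2.45-fold, 3.23-fold and 2.90-fold in that order of groups. Srebf2, a regulator of cholesterol synthesis, was 2.05-fold higher in the APS plus metformin than in the aging diabetic liver, and under 2-fold with the normexp correction, at 0.77 on the log2 scale.

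Of 15 compared genes for mitochondrial substrates, 1 was higher between the aging diabetic and the natural aging liver, the DNA glycosylase gene Ogg1 at 2.49-fold, and 0 were lower. Over all genes 8.14% were higher and 6.01% lower, so this count is near the background. Acss1, which encodes a mitochondrial acetyl-CoA synthetase that Sirt3 deacetylates, was 3.98-fold higher in the metformin than in the aging diabetic liver. Sod2, another Sirt3 substrate, was 2.08-fold lower in the metformin than in the natural aging liver. The smallest log2 differences over the settings tried were 0.95 for Ogg1 and -0.77 for Sod2, both under 2-fold. The levels of these transcripts say nothing of the acetylation of the proteins.

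The zinc-dependent deacetylases, which remove acetyl groups without NAD, were set beside the sirtuins. Between the aging diabetic and the natural aging liver 0 of 11 passed 2-fold, and 0 of 10 lysine acetyltransferases did. As 14.2% of all genes passed 2-fold there, both counts are near the background and are not a result about these families. In the metformin against the aging diabetic liver, Hdac9 was 2.57-fold higher, the only one of the 11 past 2-fold. Of all genes, 15.3% passed 2-fold in that comparison.

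The core clock was examined because Nampt is a known target of CLOCK:BMAL1. Of 13 clock genes compared between the aging diabetic and the natural aging liver, 1 was higher and 0 were lower by 2-fold. Over all genes these shares were 8.14% and 6.01%. The 1 higher clock gene was Arntl, which encodes BMAL1. It read -2.83 in the APS plus metformin liver, -1.64 in the aging diabetic liver and -3.55 in the natural aging liver, and its spot on the metformin array was left out. Arntl was 3.77-fold higher in the aging diabetic than in the natural aging liver, where Nampt was lower. A dimmer Arntl probe, used when probes with an outlier spot on any array were dropped, gave a bound of 0.38 on the log2 scale. In the APS plus metformin against the aging diabetic liver, Per2 was 2.52-fold and Arntl 2.29-fold lower, where Nampt stood 1.53-fold higher. Per2 was under 2-fold with the mean of its detected probes, at -0.89, and Arntl with the dimmer probe, at a bound of -0.70. Per3 was 3.52-fold lower in the metformin than in the aging diabetic liver. The labels used here do not give the hour at which each liver was taken, so a difference in hour and a difference between groups cannot be told apart for these genes.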

How the data were processed

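Liver RNA of 4 groups was measured with 1 array each. The arrays shared 1 slide and 1 scan, per the file headers, and were processed by Agilent Feature Extraction 11.5.1.1; the submitters' processing notes name version 10.7. Values in the deposited array files are spot intensity after the software's background subtraction and detrending, with its error and, per the file headers, 0 or 1 flags (other) for spots well above background, saturated and outlier spots. The authors' series table holds log2 values whose normalization is not stated; each column correlated with its own array at 0.999 or more and with others at 0.975 at most, and stayed within an SD of 0.004 of the quantile-normalized intensity. Its direction is that of signal, and its centre was a median of 7.85 on every array.

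The log2 of the processed intensity minus the log2 of the array's 75th percentile was taken (Python 3.11.15, numpy 2.4.6, pandas 2.3.3). The 75th percentile was 3406 on the APS plus metformin, 3589 on the metformin, 3068 on the aging diabetic and 2699.5 on the natural aging array. Of 56605 probes, 33767 matched 23462 genes through unversioned transcript identifiers and a RefSeq table, and 22838 matched none. Probes spotted 10 times were averaged, and a probe whose spots were outliers on an array was left out of comparisons with that array only. The brightest probe stood for each gene. Comparison needed a signal well above background on at least 1 array, with a bound against the other array, and called past 2-fold (1 on the log2 scale). With 1 array per group no test was run, and the number of arrays limits the precision. The error of a difference combines both spots' errors. Spots of the same probe had a median SD of 0.060 to 0.069 on the log2 scale.

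Named genes are the 8 members and up to 3 genes past 2-fold per list and comparison with the largest differences. Also named are the 3 genes most like the member with the widest range, provisional symbols passed over. Genes named below 2-fold for their role were chosen after their values were seen. The members and lists were chosen with earlier results of these data known. Alternatives were quantile normalization, cyclic loess and normexp with an offset of 50 (limma 3.58.1, R 4.3.3), the authors' log2 values, median scaling, filters and thresholds; normexp used the median spot intensity. Treatment of outlier spots in the 75th percentile, and dropping probes with any outlier spot, were added after the data were seen. The values of 1 marker gene are not reported here.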

Additional observations from a re-analysis of the deposited data

How the results depend on the processing

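The count of members past 2-fold in the aging diabetic against the natural aging liver was 1, Nampt. It was 0 after quantile normalization, cyclic loess and in the authors' values, where Nampt read -0.98, -0.99 and -0.98. The first and the last of these are nearly the same scaling. The count was also 0 when probes with an outlier spot on any array were dropped, which removes Nampt (chosen after seeing the data). At 1.5-fold it was 2. In the metformin and the APS plus metformin against the aging diabetic livers the count of 0 became 1 at 1.5-fold, and in the metformin against the natural aging liver it became 1 with outlier spots kept. Of 447 member differences recomputed, 383 moved by less than the measurement error. Some settings could not move a sirtuin: no sirtuin spot had an outlier flag, and each brightest probe was detected on all 4 arrays. The mean of detected probes could not move a gene with 1 detected probe. The count is therefore not a measure of stability. A sign change occurred in 27 of the 447, none of them above 0.23 in size as reported. Of 54 differences past 2-fold that the naming rule takes from the pathway lists, 28 fell under 2-fold in at least 1 setting and 0 changed sign. Nampt in the APS plus metformin against the aging diabetic liver ranged over 0.38 to 0.67, the lowest with the 75th percentile over spots without an outlier flag.

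Over all genes, 1.5-fold gave 4589, 4739, 4135, 4883, 5848 and 4469 calls, against 2128, 2413, 1722, 2325, 2788 and 1966 at 2-fold, for aging diabetic over natural aging, metformin and APS plus metformin over aging diabetic, APS plus metformin over metformin, and both treated livers over natural aging, in this order. Median scaling changed the share of calls that were higher to 64.0% against 77.1% (metformin against aging diabetic), 28.3% against 16% (APS plus metformin against metformin) and 55.9% against 73.4% (metformin against natural aging), and moved the median of all genes by -0.17, 0.16 and -0.18. A 75th percentile without outlier spots gave 20.4% against 39.3% (APS plus metformin against aging diabetic) and 35.6% against 48.8% (against natural aging). It moved the medians by -0.23 and -0.15. For APS plus metformin over metformin it gave 7.25% against 16%, 2952 calls against 2325, and a median moved by -0.24. Cyclic loess moved medians by -0.15 (APS plus metformin against metformin) and 0.13 (metformin against natural aging). The causes were not tested.

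No paired analysis was possible because each group has 1 array. No difference can be set against the spread between mice. The errors cover spot measurement, and the dim probes of Sirt1 and Sirt6 give only an upper limit.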
